A study of Homo sapiens with 9 samples.

Results

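The genes ALB, AFP, TF, APOA1, SERPINA1, CLU, FGA, FGB and FN1 encode proteins that the liver secretes into plasma. A site of the deposited lists was counted when its position and strand fell within the gene's interval in build hg19. These 9 genes held 15 of the 4934 entries in the 3 deposited site lists, which came to 14 different positions. HepG2, the cells used, is an established line from a human liver tumour. The cells stably carried SETD2 hairpin 1 (shSETD2#1), SETD2 hairpin 2 (shSETD2#2) or a non-specific control shRNA, each delivered by lentivirus and followed by puromycin selection, which the control cells went through as well. The labels name 3 replicates for every shRNA, 9 samples in all, and assign 1 pooled list to each shRNA, so no value has a replicate error and no test of the knockdown was possible. The series is titled as miCLIP, a method that reads C-to-T changes beside antibody-bound N6-methyladenosine (m6A), while the sample titles say m6A-seq and the protocol gives no crosslinking step. The sites are therefore described as C-to-T positions that the authors listed as m6A, and the SETD2 transcript was not analysed here.

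m6A is a common internal modification of mRNA, written by a methyltransferase complex that contains METTL3 and METTL14 and read by proteins that affect splicing, translation and decay. SETD2 trimethylates a lysine of histone H3 along transcribed genes, a mark to which METTL14 is known to bind. Hepatocytes export most of the proteins of blood plasma, and their mRNAs are among the most abundant in the liver: carriers such as albumin, protease inhibitors, and fibrinogen for clotting. The comparison asks how the authors' m6A positions in these mRNAs differed after SETD2 knockdown.

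The lists behind the comparison differed in length, with 482 sites for hairpin 1, 697 for hairpin 2 and 3755 for control. Each site carries a whole-number score set by the authors, taken here as the number of reads over the base, and each list starts at a score of 3. The median score was 11 with hairpin 1, 15 with hairpin 2 and 14 in control, and the summed score was 23420, 51597 and 256360. The scores are not scaled for sequencing depth, since library totals were not used. A base that is not listed may still have been covered or modified.

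With SETD2 hairpin 1 the plasma protein genes held 5 sites, with hairpin 2 they held 2, and in control they held 8. The sites lay in 5 genes with hairpin 1 (AFP, FGA, FGB, SERPINA1 and FN1), in 1 gene with hairpin 2 (FN1) and in 5 genes in control (AFP, FGA, TF, FN1 and CLU). ALB and APOA1 had no site in any list. As a share of the list, the genes made up 1.04% of sites with hairpin 1 (95% exact Clopper-Pearson interval 0.338 to 2.40), 0.287% with hairpin 2 (0.0348 to 1.03) and 0.213% in control (0.0920 to 0.419). The intervals of both hairpins overlapped that of control. The control share itself lay below the hairpin 1 interval and inside that of hairpin 2, and the hairpin 1 share lay above the control interval. The intervals cover counting error only and treat sites as independent, and the difference between the lists was not tested. As a share of the summed score the genes held 1.57% with hairpin 1, 0.0407% with hairpin 2 and 0.454% in control. Within the hairpin 1 total of 367, the single FN1 site gave 299, and within the control total of 1163, the single CLU site gave 814.

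**Figure D1:**
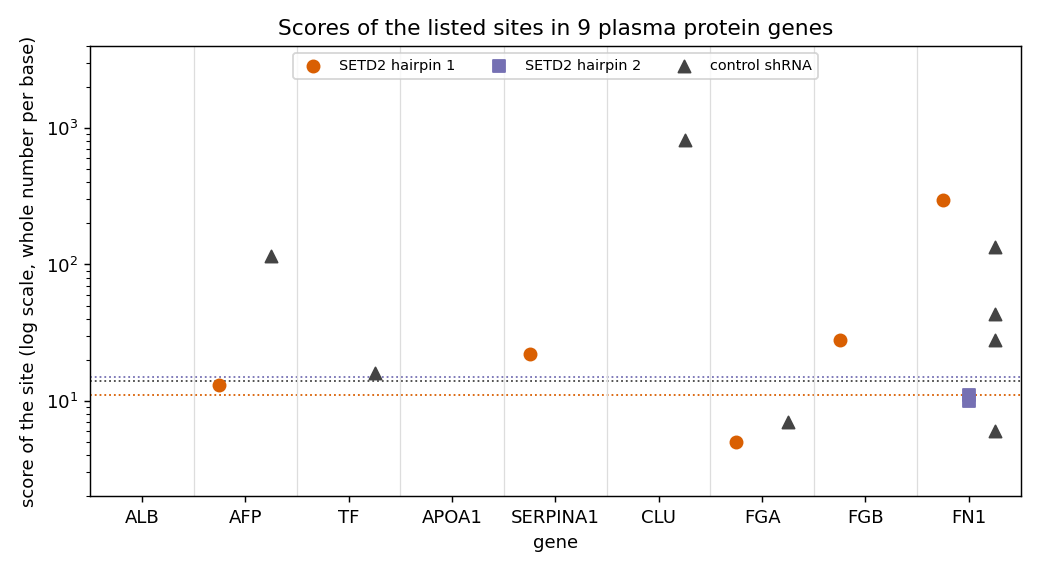
Score of every listed site (vertical axis, log scale) in the 9 genes for SETD2 hairpin 1 (circles), hairpin 2 (squares) and control (triangles), with dotted lines at the median score of each whole list. CLU in control (814) and FN1 with hairpin 1 (299) stand highest, both hairpin 2 sites lie in FN1, and ALB and APOA1 have no point.

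The control positions were mostly not listed after knockdown. Of the 8 control sites in these genes, 1 was listed at the same base with hairpin 1, or 12.5% (0.316 to 52.7), against 5.99% of all control sites. With hairpin 2 it was 0 of 8 (0 to 36.9), against 6.50% of all control sites. With either hairpin 1 of 8 was found again, against 10.3% of all control sites, and with both hairpins 0 of 8, against 2.21%. All 4 whole-list percentages lie within the intervals of the genes. How often a control site was found again depended on its score: over the whole control list, either hairpin listed 2.03% of sites with a score of 3 to 9, 3.52% at 10 to 19, 14.1% at 20 to 99 and 38.2% at 100 or more. In the plasma protein genes the numbers found with either hairpin were 0 of 2, 0 of 1, 0 of 2 and 1 of 3 in these ranges.

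The positions listed after knockdown were also mostly not in the control list. Of the 5 hairpin 1 sites, 4 were not listed in control, against 53.3% of the hairpin 1 list, and of the 2 hairpin 2 sites, 2 were not listed in control, against 65.0% of the hairpin 2 list. The exact intervals for the genes were 28.4% to 99.5% with hairpin 1 and 15.8% to 100% with hairpin 2, so both whole-list values lie inside them. No position of these genes was shared by the 2 hairpins, which held 5 and 2 sites. The share of all sites common to the 2 hairpin lists was not calculated. It has a floor: both hairpins listed 83 of the control sites, so at least 83 sites were common to their lists of 482 and 697. With 5 and 2 sites, the lack of a shared position is not read as a result about these genes.

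Among the carrier proteins, AFP held the 1 position shared between lists. AFP encodes alpha-fetoprotein, the fetal counterpart of albumin, which hepatocellular carcinoma cells often produce again. The interval spans chromosome 4, 74301933 to 74321891, on the plus strand. Its only site, at position 74313327, had a score of 13 with hairpin 1 and 115 in control, and was not listed with hairpin 2. The score was 8.85-fold lower with hairpin 1 than in control (95% interval 4.97 to 17.1 from counting error alone), or -3.15 on the log2 scale. Over the 225 sites shared by hairpin 1 and control, the median log2 ratio was -2.81 with quartiles of -3.71 and -1.75, and 84.0% had a score at least 2-fold lower with hairpin 1. AFP thus lay between the quartiles: 92 of these sites had a lower ratio and 132 a higher one. Divided by the summed score of each list, the AFP ratio was 0.31 on the log2 scale, and divided by the ratio at shared mitochondrial sites it was -0.32.

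The C-to-T reads at the AFP base were few. Numbers of C-to-T reads are not in the files and were reconstructed from the order of the site names, as described under the processing. At AFP 1 of 13 reads carried the change with hairpin 1 (7.69%, exact interval 0.195 to 36.0) and 1 of 115 in control (0.870%, 0.0220 to 4.75). The intervals overlap, and both contain the background rate fitted to their list, 1.43% with hairpin 1 and 1.57% in control. With 1 changed read neither interval could have lain above its rate.

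ALB, AFP's neighbour in the RefSeq gene table and the gene for albumin, the most abundant plasma protein, held no listed base over its 17.2 kb (74269972 to 74287129, plus strand). APOA1, for the main apolipoprotein of high-density lipoprotein, held none over 1.87 kb (chromosome 11, 116706469 to 116708338, minus strand). TF, which encodes the iron carrier transferrin, had 1 site in control and none with either hairpin. It lay at position 133480365 of chromosome 3 (gene interval 133464977 to 133497850, plus strand). Its score was 16, above the control median of 14, with 1 C-to-T read (6.25%, exact interval 0.158 to 30.2). Among all control sites with scores of 10 to 19, 48.2% rested on a single C-to-T read.

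SERPINA1 encodes alpha-1-antitrypsin, the main inhibitor of neutrophil elastase in plasma. Its interval runs from 94843084 to 94857029 on the minus strand of chromosome 14. It had 1 site with hairpin 1, at position 94845924, and none with hairpin 2 or in control. The score was 22 with 1 C-to-T read (4.55%, exact interval 0.115 to 22.8). The nearest control site on this strand lay 13171 nt away, outside the gene.

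CLU encodes clusterin, a secreted chaperone that also circulates with lipoproteins, and carried the highest score of the set. The control site at position 27455529 of chromosome 8 (gene interval 27454434 to 27472328, minus strand) had a score of 814, rank 30 of 3755 control sites. C-to-T reads numbered 30 (3.69%, exact interval 2.50 to 5.22), and the interval lay above the fitted control rate of 1.57%. Over control sites with scores of 100 or more the median share was 1.83%, and 21.6% of those with a resolved read number had an interval above the rate. Neither hairpin listed a base in CLU. At control scores of 100 or more, hairpin 1 listed 26.5% of all control sites, hairpin 2 listed 23.8% and either hairpin listed 38.2%.

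FGA and FGB, which encode chains of fibrinogen, the soluble precursor of the fibrin clot, are neighbours on chromosome 4 in the RefSeq gene table. The FGA sites had scores below the median of their lists, while the FGB site lay above it. In FGA (155504280 to 155511897, minus strand), which encodes the alpha chain, hairpin 1 listed position 155507355 with a score of 5 and control listed position 155506999 with a score of 7. These bases are 356 nt apart, and hairpin 2 listed none. The C-to-T reads were 1 of 5 with hairpin 1 (20%, exact interval 0.505 to 71.6) and 2 of 7 in control (28.6%, 3.67 to 71.0). The control interval lay above the control rate, and that of hairpin 1 contained its rate. With a single C-to-T read the hairpin 1 interval could not have lain above it, so this does not set the shRNAs apart. The 2 bases differ, and the intervals overlap.

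In FGB (155484132 to 155491932, plus strand), which encodes the beta chain, hairpin 1 listed position 155484203 and the other lists held nothing. This base is number 72 from the gene's 5′ end, the nearest to a start among all the sites. It had a score of 28, against a median of 11 in the hairpin 1 list, with 1 C-to-T read (3.57%, exact interval 0.0904 to 18.3).

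FN1, the gene for fibronectin, which circulates in plasma and is laid down in the extracellular matrix, was the only gene with sites in all 3 lists. It held 7 of the 14 positions, and with 75.7 kb (chromosome 2, 216225163 to 216300895, minus strand) it made up 38.9% of the summed length of the 9 genes. Per 10 kb of gene interval it had 0.924 positions, against 2.63 in FGA, 1.28 in FGB, 0.717 in SERPINA1, 0.559 in CLU, 0.501 in AFP and 0.304 in TF. Each of these rates rests on 1 position in the last 4 genes and FGB, and on 2 in FGA.

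None of the FN1 positions was shared between lists. Over the whole lists, either hairpin listed 10.3% of control sites, and 53.3% of hairpin 1 and 65.0% of hairpin 2 sites were not in control. With so few positions, the lack of sharing is not read as a result about FN1. Hairpin 1 listed position 216274788 with a score of 299, and hairpin 2 listed positions 216261928 and 216235309 with scores of 10 and 11. Control listed positions 216259406, 216236895, 216257657 and 216286841 with scores of 134, 43, 28 and 6. The unscaled hairpin 1 score was thus above every control score in the gene, while both hairpin 2 scores were below all but the lowest. These scores belong to different bases and to lists of different summed score, so their order does not compare coverage between the shRNAs. The nearest control site was 12053 nt from the hairpin 1 site and 2522 and 1586 nt from those of hairpin 2.

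The hairpin 1 site in FN1 ranked 11 of 482 in its list by score, and 5 among the 257 sites that control did not list. At scores of 100 or more, 31 of 58 hairpin 1 sites were not listed in control (53.4%, interval 39.9 to 66.7), close to the 53.3% of the whole list. The site had 6 C-to-T reads (2.01%, exact interval 0.740 to 4.32), and the interval contained the fitted hairpin 1 rate of 1.43%. With hairpin 2, position 216261928 had 4 C-to-T reads among 10 (40.0%, 12.2 to 73.8), an interval above the fitted rate of 1.00%, and position 216235309 had 1 among 11 (9.09%, 0.230 to 41.3). In control, position 216259406 had 5 among 134 (3.73%, 1.22 to 8.49), position 216236895 had 1 among 43 (2.33%, 0.0589 to 12.3) and position 216257657 had 2 among 28 (7.14%, 0.877 to 23.5). Position 216286841 had 2 among 6 (33.3%, 4.33 to 77.7), the only control FN1 site with an interval above the rate.

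**Figure D2:**
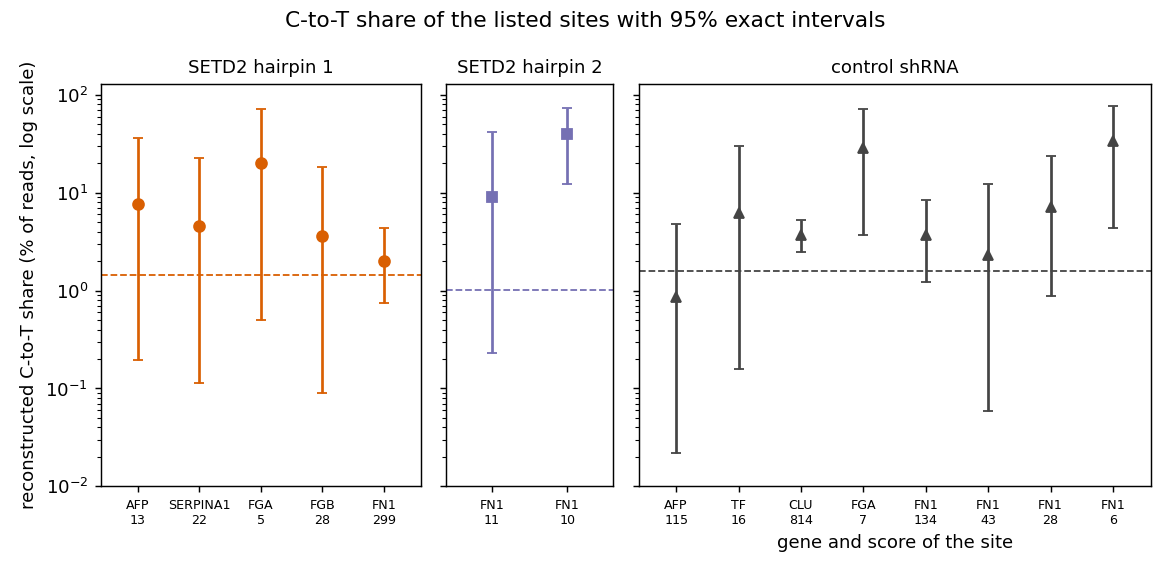
Reconstructed C-to-T share at each listed site (vertical axis, log scale), with 95% exact intervals, and the gene and score under each point; dashed lines mark the background rate fitted to each list. The interval lies above the line at 0 of 5 hairpin 1 sites, 1 of 2 hairpin 2 sites and 3 of 8 control sites.

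Across the genes, sites with a C-to-T share whose interval lay above the fitted rate of their list numbered 0 of 5 with hairpin 1, 1 of 2 with hairpin 2 and 3 of 8 in control. The whole lists had 21.7%, 25.6% and 42.4%. These whole-list shares fell with the score: from 57.3% at scores of 3 to 9 to 21.6% at 100 or more in control. With hairpin 1 they fell from 31.4% to 7.27%. Of the 3 control sites counted, 2 had scores of 3 to 9. A single C-to-T read lay under 4 of the 5 hairpin 1 sites, 1 of the 2 hairpin 2 sites and 3 of the 8 control sites, against 62.4%, 58.7% and 40.9% of the whole lists. The exact intervals of the shares in these genes contain the whole-list value in each of these 6 comparisons. The interval for 0 of 5, for example, runs from 0 to 52.2%. The 2 counts are not separate, because a listed site with a single C-to-T read cannot have an interval above the rate. That outcome was fixed for 4 of the 5 hairpin 1 sites. In control at scores of 3 to 9, 57.3% of sites lay above the rate and the remaining 42.7% had a single C-to-T read. The median share at the sites was 4.55% with hairpin 1, 24.5% with hairpin 2 and 4.99% in control, against 11.1%, 9.09% and 12.5% over the lists. Since no site is listed without a changed read, a low score sets a floor on the share. Neither these medians nor the 6 comparisons were matched for score.

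The sites ran from 0.923% of the gene's length, in FGB, to 93.9%, in CLU. Counted from the 5′ end of the interval, with introns included, the median position was at 57.1% of the length with hairpin 1, 69.0% with hairpin 2 and 57.1% in control. With a minimum score of 10 the hairpin 1 median was 45.8%, on the other side of the midpoint. Sites past the midpoint numbered 3 of 5 with hairpin 1, 2 of 2 with hairpin 2 and 6 of 8 in control. None lay within 1000 nt of the annotated 3′ end. Neither this count nor that past the midpoint was made over the whole lists. Windows of 1000 nt cover a small part of the 194.9 kb of the 9 genes, so neither count is read as a result about them. The nearest to a 3′ end was the CLU control site, 1095 nt away, followed by the FGA control site at 2719 nt and the SERPINA1 hairpin 1 site at 2840 nt. Exon, intron and UTR classes were not analysed here, so these are distances along the genome and not along the mRNA. No list held a site on the opposite strand of any of the 9 genes.

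**Figure D3:**
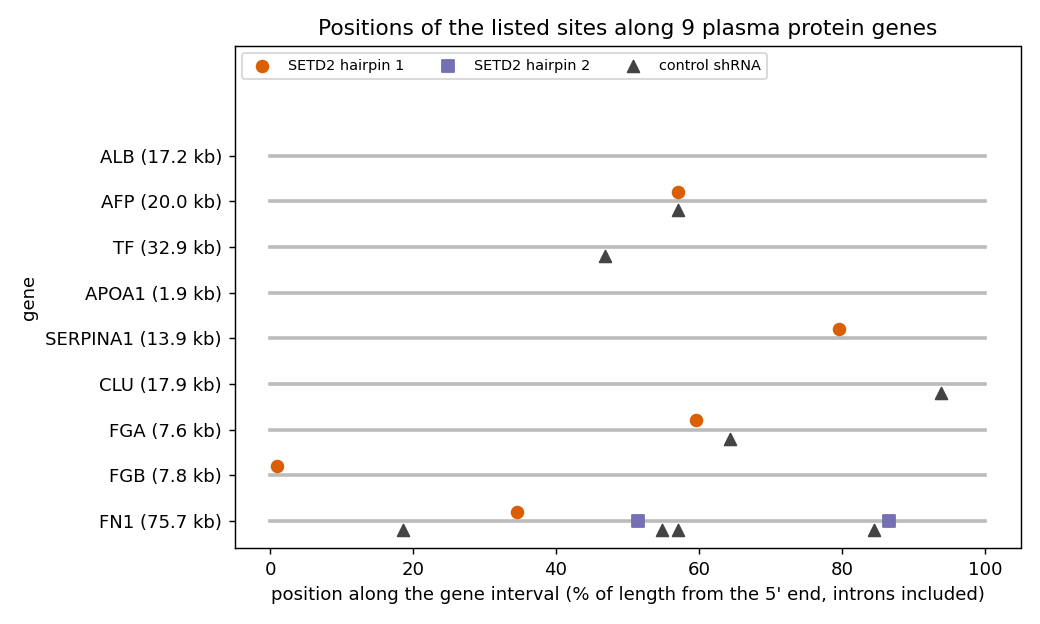
Position of each listed site along its gene (horizontal axis, percent of the genomic interval from the 5′ end), one line per gene with its length in kb, for SETD2 hairpin 1 (circles), hairpin 2 (squares) and control (triangles). The AFP symbols of hairpin 1 and control stand at the same base, the FGB site lies at 0.923% of the length, and the FN1 sites run from 18.6% to 86.6%.

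These lists cannot check the labelled cell type, since markers of other cell types were not located. A site needs both reads and a C-to-T change, so the lists do not measure expression, and fewer reads at a base may come from less RNA, less modification or a shallower library, which cannot be told apart here.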

How the data were processed

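The 3 deposited lists give 1-nt sites with chromosome, position, strand, a running number and a score, 1 pooled list per shRNA, per the labels. The authors' score is a whole number of unstated meaning. The site names carry the tool name rbsSeeker, and FastQC 0.11.5, cutadapt 1.13, Bowtie 1.1.2 and hg19 come from the submitters' processing notes. Neither the filters nor the pooling step are given in the sources used here. Positions are 1-based.

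The score was taken as reads over the site, because at a background rate fitted to each list (1.43%, 1.00% and 1.57% for hairpin 1, hairpin 2 and control) the running numbers order all 482, 697 and 3755 sites by the binomial probability of their C-to-T reads. This order leaves a single read number at 97.7%, 97.0% and 98.6% of sites, among them all 15 sites reported. The calculation was tested on simulated lists of the same lengths, where every single-valued number was right. Those lists were ordered by the same binomial model, so this checks the calculation only and does not test what the score means. Reads are not independent molecules.

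Sites match at the same base and strand. Intervals are 95% exact Clopper-Pearson. Genes, lists and comparisons were chosen with earlier results of these data known. All sites in the 9 genes are named. Python 3.11.15, numpy 2.4.6, scipy 1.17.1, pandas 2.3.3 and matplotlib 3.10.9 were used. An hg19 genome or annotation was not used here, so no sequence is shown, and further plasma protein genes were not analysed here.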

Additional observations from a re-analysis of the deposited data

How the results depend on the processing

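The AFP ratio depended on scaling: the log2 ratio of hairpin 1 over control was -3.15 unscaled, 0.31 divided by the summed scores and -0.32 divided by the ratio at 13 shared mitochondrial sites. With a minimum score of 20 the genes held 3 sites with hairpin 1, 0 with hairpin 2 (0% of that list, and 0 sites not in control) and 5 in control. Minimum scores of 5 and 10, merging sites within 10 nt, extending the intervals by 1000 nt and counting either strand kept the numbers of sites within 1.5 times. The share of the list moved further at a minimum score of 10, to 1.56% with hairpin 1 and 0.477% with hairpin 2, against 0.263% in control, each within the interval given for all sites. The median position with hairpin 1 was 45.8% of the length there. Matching within 10 or 50 nt left the numbers found again and not in control as they were. No paired analysis was possible because each shRNA has 1 pooled list with no values per replicate, and for the same reason no replicate could be left out. Distance to the 3′ end in nt is given beside the share of the length and was not run as a separate alternative. Most sites rest on 1 or 2 C-to-T reads, which limits every share.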

Other observations

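Outside the gene intervals, a window of 10000 nt on each side, chosen after seeing the data, held 1 same-strand site over all 9 genes and 3 lists. It was a control site with a score of 12 at position 116714285 of chromosome 11, minus strand, 5947 nt outside the APOA1 interval.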
